A study of Mus musculus with 18 samples.

Results

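The 32 genes described here encode RNA-binding proteins with which neural cells control how transcripts are spliced, stabilised and translated. They were picked by gene symbol, and all 32 were found among the 55335 genes of the count matrices. They form 10 families: the PTB proteins (Ptbp1, Ptbp2, Ptbp3), the nSR100 family (Srrm3, Srrm4), NOVA (Nova1, Nova2), RBFOX (Rbfox1, Rbfox2, Rbfox3), CELF (Celf1 to Celf6), ELAVL or Hu (Elavl1 to Elavl4), MBNL (Mbnl1, Mbnl2, Mbnl3), STAR (Khdrbs1, Khdrbs2, Khdrbs3, Qk), Musashi (Msi1, Msi2) and FMRP (Fmr1, Fxr1, Fxr2).

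The genes were followed in nuclei of the mouse forebrain at embryonic day 14 (E14), from progenitors to neurons and across 3 Myt1l genotypes. MYT1L is a zinc finger transcription factor of postmitotic neurons, and the mutant allele was the frameshift S710fsX on a C57BL/6 background, carried in the whole animal. Wild type (WT), heterozygous (Het) and homozygous mutant (KO) embryos came from matings of Het parents, and 3 embryos per genotype were each sequenced in 2 runs, giving 9 animals and 18 libraries. The design names both sexes in each genotype, but by Xist (375 CPM, counts per 1000000 UMIs, in WT replicate 3 against at most 0.73 in the other animals) and Y-linked transcripts (5.45 CPM against at least 521) WT replicate 3 was female and the other 8 animals were male. In run 1 the genotype tag reads WT for every library while the titles name all 3 genotypes, and the titles were used. Myt1l RNA was not lower in the mutants, so it does not check the genotypes. In excitatory neuron-like nuclei it read 1973, 2263 and 2139 CPM in WT, 2222, 2505 and 2415 CPM in Het, and 2508, 2835 and 2515 CPM in KO. Every KO animal thus lay above every WT animal. Whether these counts come from the transcript of the mutant allele was not tested.

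As background, progenitors of the nervous system keep neuronal exons out of mature transcripts mainly through PTBP1, and neurons include them as PTBP1 falls and SRRM4, NOVA, RBFOX, CELF, MBNL and ELAVL proteins rise. Musashi and Quaking proteins are best known from neural stem cells and glia, where they act on translation, splicing and RNA stability. FMRP and its relatives bind messenger RNAs on ribosomes and in transport granules.

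In excitatory neuron-like nuclei, 3 of the 32 genes, Mbnl2, Msi2 and Srrm4, were called higher in KO than in WT, as were 0.964% of all genes tested. A fit that compared animals of the same replicate number added Elavl2 and Qk and called 3.76% of all genes higher. The promoters of these 5 genes are shown because they moved in the same direction; each is a RefSeq window of GRCm38.p6 from 250 bases before to 50 after a transcription start. Mbnl2 (chr14:120275419-120275718, plus strand), Msi2 (chr11:88718228-88718527, minus), Srrm4 (chr5:116591768-116592067, minus), Elavl2 (chr4:91399935-91400234 and chr4:91376447-91376746, minus) and Qk (chr17:10319312-10319611, minus) are written 5′ to 3′ on the gene's strand. Capitals mark AAGTT or its reverse complement AACTT, the core of the sequence that MYT1-family zinc fingers bind.
Mbnl2: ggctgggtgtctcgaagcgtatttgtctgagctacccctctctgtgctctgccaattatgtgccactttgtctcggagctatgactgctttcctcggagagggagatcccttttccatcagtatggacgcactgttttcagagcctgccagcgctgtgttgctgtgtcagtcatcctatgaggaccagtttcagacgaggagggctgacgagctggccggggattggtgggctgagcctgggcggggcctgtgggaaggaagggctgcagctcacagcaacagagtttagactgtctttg
Msi2: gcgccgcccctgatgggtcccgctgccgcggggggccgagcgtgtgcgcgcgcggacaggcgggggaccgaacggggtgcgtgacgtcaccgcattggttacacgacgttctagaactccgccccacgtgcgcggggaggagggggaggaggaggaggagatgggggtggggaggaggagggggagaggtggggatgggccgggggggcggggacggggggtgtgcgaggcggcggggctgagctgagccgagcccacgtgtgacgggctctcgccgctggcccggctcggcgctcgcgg
Srrm4: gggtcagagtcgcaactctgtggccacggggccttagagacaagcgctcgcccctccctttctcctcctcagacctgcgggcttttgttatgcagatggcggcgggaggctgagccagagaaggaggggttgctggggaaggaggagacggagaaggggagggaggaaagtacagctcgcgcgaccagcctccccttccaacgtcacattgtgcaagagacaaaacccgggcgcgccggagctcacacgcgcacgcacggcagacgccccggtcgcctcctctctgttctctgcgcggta
Elavl2, upstream start: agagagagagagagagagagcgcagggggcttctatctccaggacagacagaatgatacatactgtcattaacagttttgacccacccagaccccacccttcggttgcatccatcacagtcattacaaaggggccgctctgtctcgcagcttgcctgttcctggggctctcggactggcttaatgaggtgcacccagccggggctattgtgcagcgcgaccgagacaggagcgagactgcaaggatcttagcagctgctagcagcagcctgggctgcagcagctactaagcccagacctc
Elavl2, next start: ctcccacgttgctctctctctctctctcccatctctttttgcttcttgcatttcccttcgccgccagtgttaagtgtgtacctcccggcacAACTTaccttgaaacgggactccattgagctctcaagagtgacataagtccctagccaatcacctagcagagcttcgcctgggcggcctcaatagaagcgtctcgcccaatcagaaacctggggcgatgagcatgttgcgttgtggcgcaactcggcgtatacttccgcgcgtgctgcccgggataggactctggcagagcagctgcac
Qk: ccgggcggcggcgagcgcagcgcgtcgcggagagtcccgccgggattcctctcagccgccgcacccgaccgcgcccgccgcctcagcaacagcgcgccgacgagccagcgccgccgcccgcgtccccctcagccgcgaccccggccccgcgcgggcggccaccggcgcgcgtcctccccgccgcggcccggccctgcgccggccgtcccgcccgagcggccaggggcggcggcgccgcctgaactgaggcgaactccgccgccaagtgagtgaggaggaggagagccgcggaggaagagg
The window at the next start of Elavl2 has 1 match and the other windows shown have 0, which says only that these letters are not in them. Elavl2 has 6 windows in the table, some of them overlapping, and 5 hold a match, whereas Msi2 has 3 that overlap and hold 0. Over all 32851 RefSeq promoters, 39.3% hold AAGTT on either strand, 14.4% the longer AAGTTT and 4.74% the full AAAGTTT, each motif containing the shorter one. The table held 54 promoters of 26 of the 32 genes, of which 14, 8 and 2 hold these motifs. The 14 belong to Celf1, Celf5, Elavl2, Elavl4, Fxr1, Mbnl1, Rbfox1, Rbfox3 and Srrm3.

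After filtering, 196129 of 261143 barcodes (75.1%) were kept, with a median of 2519 UMIs and 1572 genes. Animals held 14990 to 26232 nuclei and a total of 4.35e+07 to 7.45e+07 UMIs. Clustering without the 32 genes gave clusters that were named from their markers, and 6 classes were compared: radial glia-like (RG-like, 26502 nuclei), excitatory intermediate progenitor-like (IP-like, 17678), excitatory neuron-like (ExN-like, 40747), inhibitory progenitor-like (InhP-like, 9017), inhibitory neuron-like (InhN-like, 43622) and Cajal-Retzius-like (CR-like, 2101). Clusters that hold 55434 nuclei (28.3%) stayed unnamed. Not compared were microglia and macrophage-like (186 nuclei), mural and fibroblast-like (107) and diencephalic neuron-like nuclei (735, all from Het replicate 1). Counts were summed per animal and class, so that the animal is the replicate. These sums held at least 1.08e+07 UMIs per animal in ExN-like, 8.02e+06 in InhN-like and 6.00e+05 in CR-like nuclei. Kept barcodes were shared by libraries of the same animal in 158 cases, of other animals across runs in 1266 and within a run in 466.

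The highest class differed between members of the same family in all families but NOVA. Of the 32 genes, 7 were highest in RG-like nuclei (Ptbp1, Mbnl1, Mbnl3, Qk, Msi1, Fmr1, Fxr1), 4 in InhP-like (Ptbp2, Celf1, Elavl1, Khdrbs1), 5 in IP-like (Srrm4, Rbfox3, Elavl2, Elavl4, Fxr2), 4 in ExN-like (Rbfox1, Celf2, Khdrbs2, Khdrbs3), 8 in InhN-like (Ptbp3, Nova1, Nova2, Rbfox2, Celf3 to Celf6) and 4 in CR-like nuclei (Srrm3, Elavl3, Mbnl2, Msi2). For 17 of them, the 9 animals of the highest class did not overlap those of the next class. The share of all genes without such overlap was not computed, so this count has no background. The ranges overlapped for the other 15. Among these, the top class was higher within the animal in 9 of 9 animals for Srrm4, Rbfox2, Celf5, Khdrbs1 and Fmr1 and in 8 for Ptbp1 and Celf3. The order of IP-like and ExN-like nuclei for Srrm4 holds for CPM only, since its mean ratio changed sign with TMM scaling. For the remaining 8 genes the top class was less regular. The top class was higher in only 4 to 7 animals for Ptbp2, Ptbp3, Nova2, Celf6, Elavl1, Elavl3, Fxr1 and Fxr2, so that the first 2 classes of these genes do not differ beyond their spread.

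**Figure D1:**
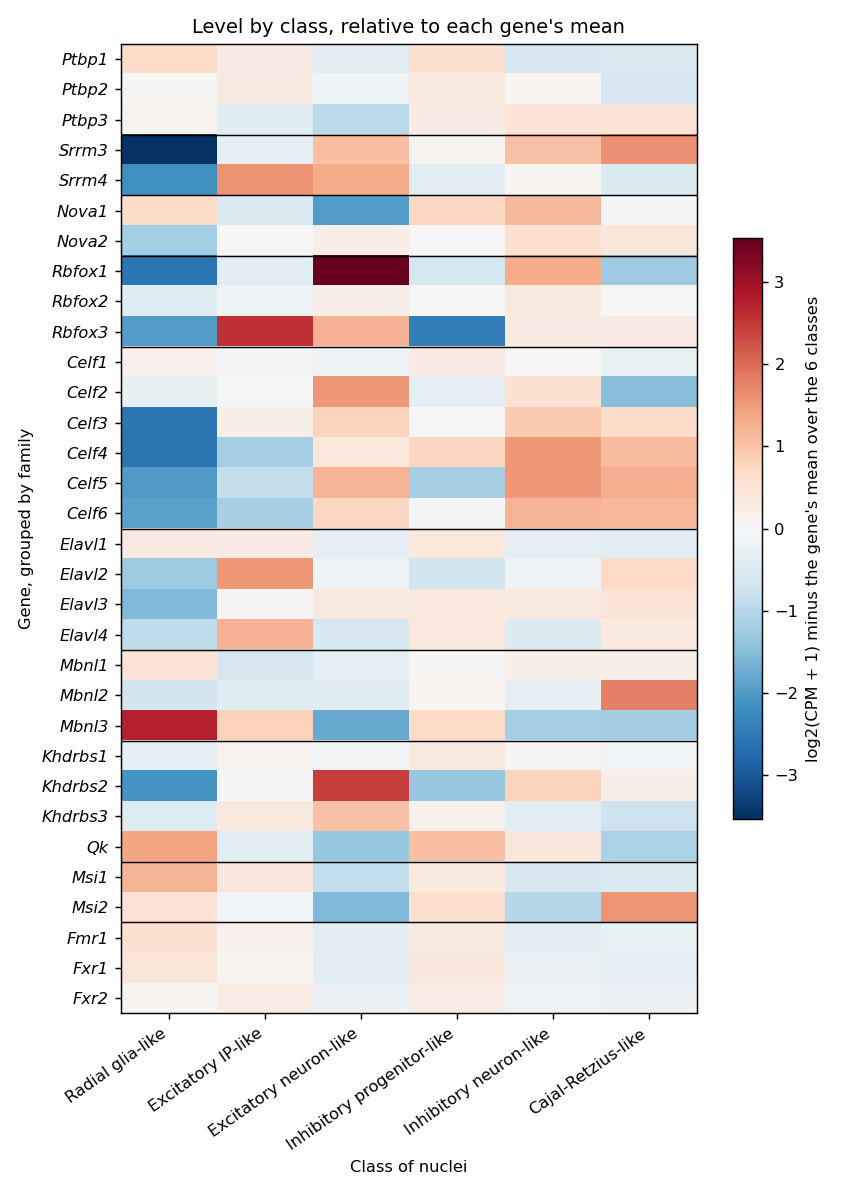
Level of each of the 32 genes (rows, by family) in the 6 classes (columns), as log2(CPM + 1) averaged over 9 animals minus the gene's mean over the classes, so that colour compares classes within a gene only. Mbnl3, Qk and Msi1 are highest on the radial glia side, Rbfox1, Celf2 and Khdrbs2 stand out in excitatory neuron-like nuclei, and Mbnl2 and Msi2 in Cajal-Retzius-like nuclei.

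From radial glia to excitatory neurons, 13 of the 32 genes were over 2-fold higher in ExN-like than in RG-like nuclei in 9 of 9 animals and 5 were over 2-fold lower. Among all 10447 genes with at least 10 CPM in either class, 10.5% were higher and 17.6% lower by that rule, so the count of lower genes is near its background and that of higher genes is not. The 32 genes were picked as neural factors, with earlier results of these data known. The larger share of higher genes is thus not independent of that choice. The ratio was taken within each animal as log2 of CPM + 1, and it is a description with no test, since the same nuclei were clustered. The median ratio was 0.30 over the 32 genes and -0.37 over all genes. TMM scaling over all sums raised a gene's ratio by 0.38 in the median. The median of all genes then stood at 0.04, the share of higher among all called genes went from 37.5% to 54.2%, and 14 genes were higher (Elavl2 being the added one) and 5 lower, against 14.6% and 12.4% of all genes. Ptbp2, Celf1 and Fxr2 changed the sign of their mean ratio under that scaling, and none of these 3 was counted in either direction.

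Among the splicing activators of neuronal exons, Srrm4, whose protein promotes neuronal microexons, had 52.1 CPM in the lowest, 77.8 in the median and 132 in the highest animal in RG-like nuclei and 831, 913 and 1055 CPM in ExN-like nuclei. Its log2 ratio was 3.52 ± 0.36 (SD, n = 9), and no animal's RG-like level came near any ExN-like level. Srrm3, its paralogue, went from 3.58, 6.16 and 12.6 CPM to 187, 194 and 214 CPM, a ratio of 4.64 ± 0.48. Rbfox1, which binds GCAUG in introns and sets exon use by its position, had the largest ratio of the 32 genes, 6.18 ± 0.45. Its level ran from 82.9, 124 and 207 CPM in RG-like to 8983, 9649 and 10329 CPM in ExN-like nuclei. Rbfox3, the antigen known as NeuN, was 39.3 ± 18.8 CPM in RG-like and 366 ± 13.1 CPM in ExN-like nuclei (SD, n = 9 animals), a ratio of 3.32 ± 0.67, while Rbfox2 differed less, at 406 and 641 CPM. Nova2 was 49.1 and 134 CPM (ratio 1.44 ± 0.12), but Nova1 lay the other way.

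Nova1, an antigen of a paraneoplastic movement disorder and like Nova2 a regulator of synaptic splicing, had 114, 121 and 135 CPM (lowest, median, highest) in RG-like and 15.2, 17.7 and 24.1 CPM in ExN-like nuclei, a ratio of -2.64 ± 0.24. Both paralogues were thus counted, in opposite directions, in the same 9 animals.

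In the CELF family, whose proteins bind GU-rich sequence and act in splicing and RNA decay, the 5 members Celf2 to Celf6 were counted as higher and Celf1 as neither. Celf2 was 2386 ± 95.5 CPM in RG-like and 8368 ± 239 CPM in ExN-like nuclei, a ratio of 1.81 ± 0.06. Celf4 went from 71.5, 85.9 and 120 CPM to 650, 691 and 706 CPM (2.95 ± 0.20). Celf3 (3.45 ± 0.43), Celf5 (3.22 ± 0.18) and Celf6 (2.68 ± 0.35) had ratios of that size too, and Celf6 had 15.2 ± 2.10 CPM in ExN-like nuclei. The STAR proteins Khdrbs2 and Khdrbs3, the SAM68 relatives SLM1 and SLM2 that set neurexin splicing, were 1711 ± 120 and 307 ± 11.2 CPM in ExN-like nuclei with ratios of 4.55 ± 0.15 and 1.49 ± 0.05. Khdrbs1, SAM68 itself, was 251 and 298 CPM. Of the Hu proteins, which stabilise AU-rich transcripts, Elavl3 was counted as higher (177 to 663 CPM, 1.91 ± 0.18), and Elavl1, the ubiquitous HuR, was 167 and 106 CPM.

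The genes lower in excitatory neurons were Nova1, Mbnl3, Qk, Msi1 and Msi2. Qk, whose STAR-domain protein acts in glial splicing and RNA stability, had 1268, 1417 and 1493 CPM in RG-like and 185, 204 and 233 CPM in ExN-like nuclei (ratio -2.76 ± 0.17). The Musashi proteins, translational regulators of stem cells, were 389 ± 20.7 and 91.9 ± 3.57 CPM for Msi1 and 1546 ± 62.7 and 363 ± 54.9 CPM for Msi2 (ratios -2.07 ± 0.04 and -2.10 ± 0.21). Mbnl3, the muscleblind member known to hold back muscle differentiation, had 65.8, 74.0 and 82.9 CPM in RG-like nuclei and 2.31 ± 0.68 CPM in ExN-like nuclei. Ptbp1 was 48.5 ± 4.29 and 22.3 ± 1.10 CPM, and its 9 ratios ran from -1.29 to -0.94, so that it fell just short of the rule. Just short were also Ptbp3 (mean -1.08) and Elavl2 (1.12, from 0.79 to 1.71), whereas Ptbp2, which takes over from Ptbp1 in young neurons, was 543 and 476 CPM. Fmr1 had a mean ratio of -0.90 and Fxr1 of -0.80. At a 1.5-fold limit 14 genes were higher and 10 lower in 9 of 9 animals, against 14.5% and 29.2% of all genes.

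**Figure D2:**
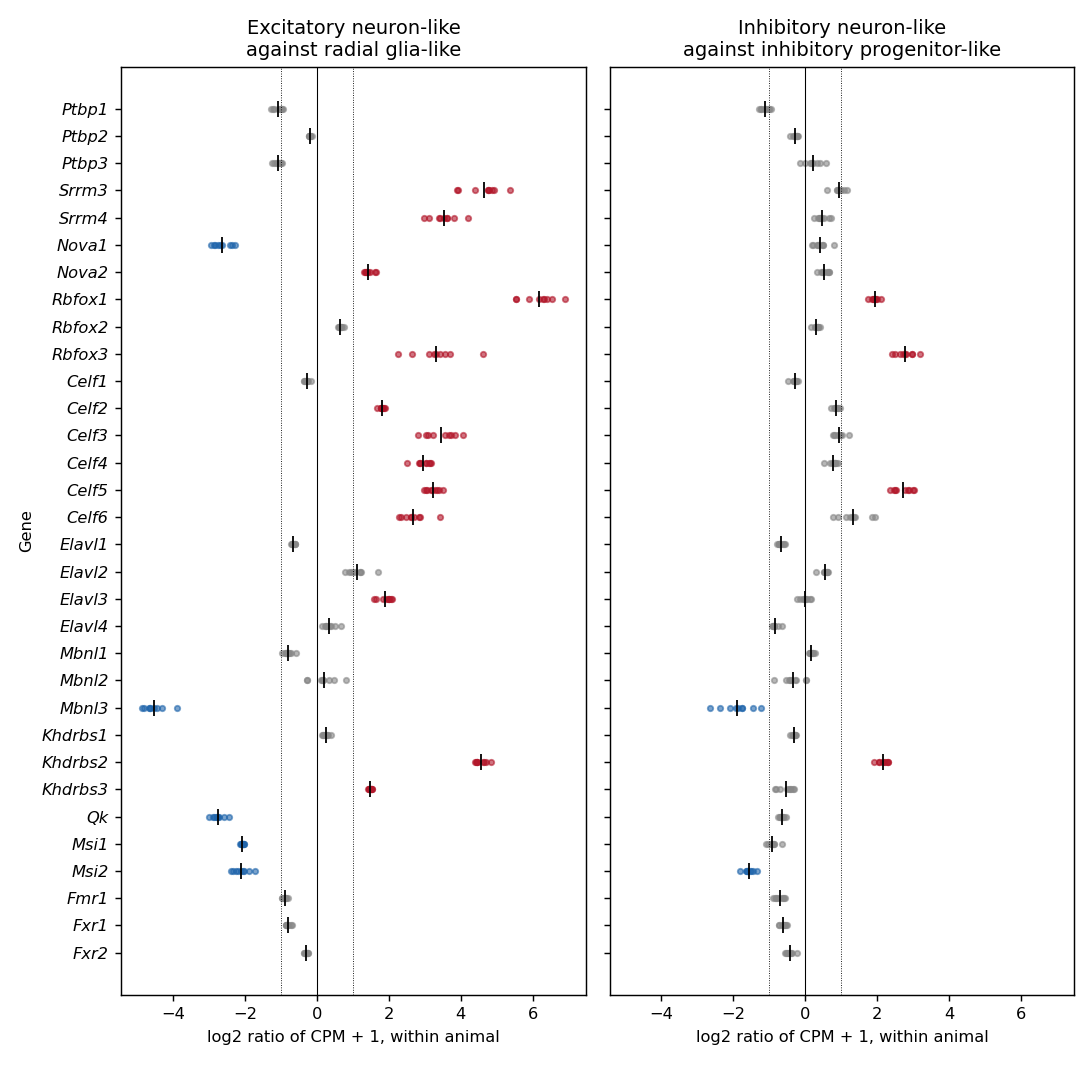
Log2 ratio of neuron to progenitor level within each animal (points, n = 9) for the 32 genes, in the excitatory lineage (left) and the inhibitory lineage (right), with ticks for the means and dotted lines at 2-fold. Red genes lie beyond 2-fold higher in 9 of 9 animals, blue genes beyond 2-fold lower, and grey genes neither: 13, 5 and 14 genes on the left and 4, 2 and 26 on the right.

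Some neuronal transcripts were also seen in RG-like nuclei and varied there with the replicate number. Srrm4 was 95.5, 86 and 132 CPM in replicate 1 of WT, Het and KO against 52.1 to 82.6 CPM in the other animals, and Myt1l 83.1, 106 and 96.8 CPM against 27.6 to 56.1. The 14 excitatory neuron markers summed to 4406 to 4886 CPM in RG-like nuclei and to 17203 to 19655 CPM in ExN-like nuclei. The 15 inhibitory neuron markers summed to 4573 to 5393 CPM in RG-like nuclei, more than the 1394 to 1819 CPM in ExN-like nuclei. The part of these counts in the ratios was not tested.

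IP-like nuclei, named for the cells between radial glia and excitatory neurons, held the highest levels of several of these genes. This class also carried neuron markers. The 14 excitatory neuron markers summed to 7981 to 9051 CPM there and the 15 inhibitory neuron markers to 3071 to 3755 CPM. Their part in the levels and steps below was not tested. Between RG-like and IP-like nuclei 10 of the 31 genes over the minimum level were over 2-fold higher in 9 of 9 animals (background 5.1%) and 2 lower (8.32%). Between IP-like and ExN-like nuclei 7 of 32 were higher (7.98%) and 7 lower (8.94%). Elavl4, encoding HuD, a regulator of neurite growth, had 838, 859 and 977 CPM (lowest, median, highest) in IP-like nuclei against 198 ± 22.8 in RG-like and 252 ± 17.5 CPM in ExN-like nuclei. Elavl2 behaved alike, at 1300, 1417 and 1630 CPM in IP-like nuclei against 200 ± 33.4 and 434 ± 47.2 CPM. Rbfox3 reached 829, 965 and 1013 CPM in IP-like nuclei, above its 344 to 386 CPM in ExN-like nuclei in every animal. The step from IP-like to ExN-like was -1.81 ± 0.08 for Elavl4, -1.71 ± 0.09 for Elavl2 and -1.37 ± 0.07 for Rbfox3.

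Srrm4 was already at 1048, 1084 and 1166 CPM in IP-like nuclei, a step of 3.79 ± 0.38 from RG-like, and overlapped its ExN-like range. Rbfox1, Celf2, Celf4, Celf5, Celf6, Khdrbs2 and Srrm3 were over 2-fold higher at the second step, Rbfox1 by 3.90 ± 0.14 and Khdrbs2 by 2.49. Qk and Mbnl3 were lower already in IP-like nuclei (-1.80 and -1.93), while Nova1, Msi1 and Msi2 passed the rule only at the second step. With TMM scaling, Celf4 and Celf5 joined the first step (12 higher, 2 lower, with 6.00% and 6.89% of all genes). At the second step 7 were higher and 3 lower (10.4% and 6.53% of all genes), without the lower counts of Nova1, Rbfox3, Msi1 and Msi2. That scaling raised a gene's ratio by 0.11 and 0.27 in the median, and the share of higher among the called went from 38.0% to 46.6% and from 47.2% to 61.3%. It turned the sign of Elavl1 at the first step and of Srrm4, Celf1, Mbnl2 and Khdrbs1 at the second.

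**Figure D3:**
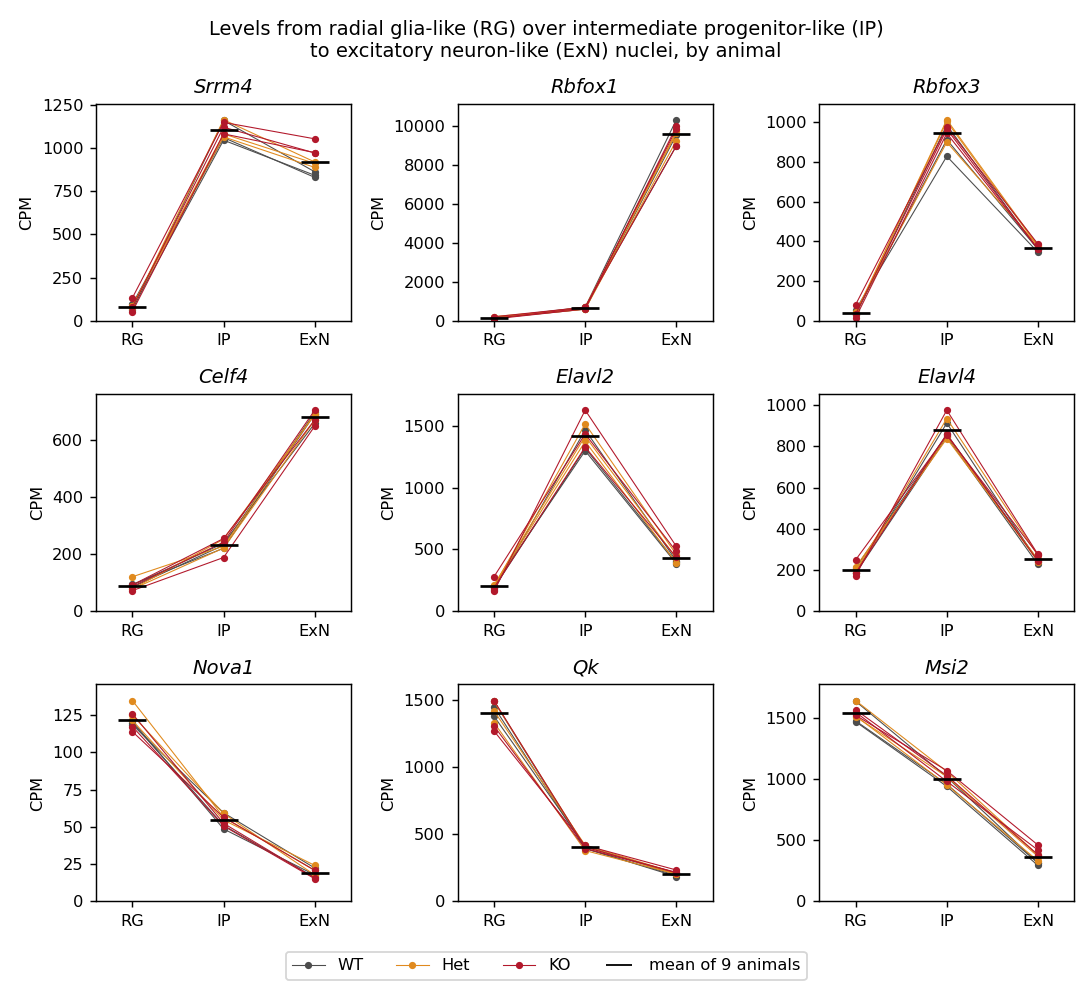
Level in CPM of 9 genes in radial glia-like, intermediate progenitor-like and excitatory neuron-like nuclei, 1 line of points per animal (n = 9, coloured by genotype), bars at the means. Elavl2, Elavl4 and Rbfox3 peak in the middle class, Srrm4 reaches its neuron level there, Rbfox1 and Celf4 are higher at each step, and Nova1, Qk and Msi2 lower at each step.

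The inhibitory lineage gave fewer counts. From InhP-like to InhN-like nuclei 4 of 32 were over 2-fold higher in 9 of 9 animals (background 8.43% of 10066 genes) and 2 lower (10.1%). Those higher were Rbfox3 (2.77 ± 0.24), Celf5 (2.71 ± 0.25), Khdrbs2 (2.16 ± 0.13) and Rbfox1 (1.92 ± 0.10), and those lower Mbnl3 (-1.90 ± 0.44) and Msi2 (-1.58 ± 0.13). All 6 had been counted in the same direction in the excitatory lineage, and the other 12 genes counted there were not counted here. As shares of the 32 genes these counts are near the background, and the medians were 0.08 over the 32 genes and -0.23 over all genes. With TMM scaling, which raised a gene's ratio by 0.26 in the median and moved the share of higher among the called from 45.5% to 58.7%, 7 were higher (Celf2, Celf3 and Celf6 added) and 1 lower (Mbnl3 lost), with 11.1% and 7.80% of all genes, and Elavl3 changed sign. At a 1.5-fold limit 8 were higher and 5 lower, against 12.5% and 18.4% of all genes.

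The InhP-like class also carried neuron markers: the 15 inhibitory neuron markers summed to 10490 to 12258 CPM there and to 18100 to 22129 CPM in InhN-like nuclei, and the part of this in the counts above and the levels below was not tested. Srrm4 was 284 ± 18.5 CPM in InhP-like and 393 ± 45.0 CPM in InhN-like nuclei, and Celf4 890 ± 44.1 and 1523 ± 110 CPM, the InhP-like levels lying above the RG-like levels of every animal. Srrm3 was 101 ± 13.6 and 192 ± 9.63 CPM. Nova1 was 129 ± 10.7 in InhP-like and 171 ± 17.5 CPM in InhN-like nuclei, with 151, 164 and 199 CPM as lowest, median and highest. Comparing both neuron classes within each animal, InhN-like exceeded ExN-like nuclei by a log2 ratio of 3.12 for Nova1, 1.75 for Qk and 1.44 for Ptbp3. The ratio was -2.24 for Rbfox1 (2040 ± 161 CPM in InhN-like nuclei), -1.65 for Khdrbs2, -1.42 for Khdrbs3 and -1.22 for Srrm4. Qk and Msi2 were higher in InhN-like (696 ± 28.4 and 534 ± 48.0 CPM) than in ExN-like nuclei. Ptbp1 was 43.6 and 19.5 CPM, again just short of the rule with ratios from -1.29 to -0.95.

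Cajal-Retzius neurons, early-born cells of the marginal zone that secrete reelin, held the highest levels of Msi2, Mbnl2 and Srrm3, with no overlap between these and the next class. Msi2 had 2909, 3225 and 3361 CPM there, above every animal of the other 5 classes, although Msi2 was lower in the other neuron classes than in progenitors. Mbnl2, whose protein governs postnatal and adult brain splicing and RNA localisation, had 314, 380 and 426 CPM, while its mean in the other classes was between 68.3 and 114 CPM. Srrm3 was also highest here (253, 290 and 334 CPM). Rbfox1 (340 ± 107 CPM) and Celf2 (1016 ± 92.4 CPM) were far below their ExN-like levels. Against RG-like nuclei the log2 ratio was 5.19 for Srrm3, 2.47 ± 0.26 for Mbnl2 and 1.05 ± 0.06 for Msi2, and -2.53 for Qk, -1.72 for Msi1 and -4.03 for Mbnl3. The class is 1 cluster, led by Trp73, Lhx1os, Reln, Lhx1 and Ebf3.

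Levels of different genes may depend on gene length, so they are also given per kilobase. Whether these UMI counts scale with length was not tested. Per kilobase of gene span, with spans from 10.3 kb (Ptbp1) to 1526 kb (Rbfox1), Msi1 (14.9 CPM per kb), Qk (11.9) and Ptbp2 (8.27) led in RG-like nuclei. Elavl3 (17.9), Celf3 (8.64) and Celf2 (8.63) led in ExN-like nuclei, where Rbfox1 was 6.28 CPM per kb, and Elavl3, Celf3 (9.38) and Ptbp2 (8.45) in InhN-like nuclei. The order depends on the length used, which matters in nuclei, where reads may fall in introns or exons. Per kilobase of exon, Msi2 (149), Qk (98.4) and Celf2 (92.2) led in RG-like nuclei, Rbfox1 (2180), Celf2 (323) and Khdrbs2 (166) in ExN-like nuclei and Rbfox1 (464), Celf4 (177) and Celf2 (162) in InhN-like nuclei. Of the 32 genes, 26 overlap another annotated gene and 21 of them at least 1 on the other strand. The sources used here do not give how the counting used strand, and the values of these genes may hold reads of such neighbours.

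Other RNA-binding genes were counted by the same rule, from lists that hold none of the 32. Between RG-like and ExN-like nuclei, 1 of 22 SR proteins and their kinases was higher (Srsf12) and 2 lower (Srsf6, Srsf10). Of 27 hnRNP proteins 1 was higher (Ralyl, 4.66) and 2 lower (Hnrnpa3, Hnrnpr), and of 25 core spliceosome genes 1 was higher (Snrpn, 2.07) and 1 lower (U2af1). Their median log2 ratios were -0.72, -0.58 and -0.50. Of 45 other RNA-binding regulators over the minimum level, 6 were higher (among them Lin28b, 3.11, and the translational regulators Cpeb2, Cpeb3 and Cpeb4) and 7 lower (among them Zfp36l1, -4.74, and Rbm20), with a median of -0.30. In the inhibitory lineage the 4 lists had 1, 1, 0 and 4 genes higher and 1, 1, 0 and 5 lower.

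Loss of MYT1L was then compared with WT in each class. In ExN-like nuclei, 3 of the 32 genes, all tested, rose in KO and 0 fell by edgeR's quasi-likelihood test (adjusted p under 0.05 over all genes and a log2 change beyond 0.2). Of all 17531 genes tested, 1.63% were called and 0.964% were called higher. Mbnl2 was 66.8, 58.8 and 59.3 CPM in WT replicates 1, 2 and 3, 77.6, 77.9 and 69.3 in Het, and 106, 102 and 94.1 in KO. No genotype overlapped another, and the Het animals lay between. The log2 change in KO was 0.73 (SE 0.078, 1.66-fold, edgeR adjusted p = 0.000758).

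Msi2 was 314, 315 and 294 CPM in WT, 368, 380 and 332 in Het, and 462, 421 and 382 in KO. KO lay above WT in every animal, 1.39-fold in the fit (log2 change 0.47, SE 0.082, edgeR adjusted p = 0.0112). Srrm4 was 831, 864 and 844 CPM in WT, 913, 921 and 890 in Het, and 1055, 975 and 973 in KO. Again the 3 genotypes did not overlap, and KO was 1.20-fold WT (log2 change 0.26, SE 0.060, edgeR adjusted p = 0.0445). The call of Mbnl2 held whichever of the 9 animals was left out, whereas that of Msi2 was lost without WT replicate 3 (edgeR adjusted p = 0.0657) or KO replicate 2 (0.0562), and Srrm4 without any of WT 1, 2 and 3, Het 1, 2 and 3, KO 1 or KO 2 (edgeR adjusted p from 0.0585 to 0.168). In run 1 alone 0 genes were called, with log2 changes of 0.70 for Mbnl2 (edgeR adjusted p = 0.201), 0.41 for Msi2 (0.237) and 0.25 for Srrm4 (0.426). Without WT replicate 3, the female animal, the log2 changes were 0.70, 0.44 and 0.26 and 1 gene was called.

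Animals that share a replicate number deviated together in this class (r from 0.238 to 0.691 over 9 pairs), and with the number as a block 5 genes rose, against 3.76% of all genes called higher. The added genes were Elavl2 and Qk. In fits without the block that left out 1 animal, the log2 change of Elavl2 ran from 0.22 to 0.39. That of Qk ran from 0.17 to 0.25 and so on both sides of the 0.2 limit. Elavl2 was 384, 407 and 396 CPM in WT, 389, 457 and 428 in Het, and 483, 524 and 435 in KO, with KO above WT in every animal (log2 change 0.30, SE 0.088, edgeR adjusted p = 0.119, and 0.00233 with the block). Qk was 201, 185 and 193 CPM in WT, 211, 204 and 203 in Het, and 233, 212 and 216 in KO, also without overlap of KO and WT (log2 change 0.21, SE 0.058, edgeR adjusted p = 0.0908, and 0.0107 with the block). Nova2 was 145, 146 and 143 CPM in WT and 129, 116 and 136 CPM in KO, a log2 change of -0.17 (edgeR adjusted p = 0.212). Its KO and WT animals did not overlap. Among other uncalled genes, Srrm3 and Ptbp2 lay lower in KO and Rbfox2 higher, also without overlap. The share of all genes without overlap of KO and WT was not computed in any class, so such statements have no background.

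The remaining genes were not called in ExN-like nuclei. Over the 32 genes the log2 change ran from -0.18 to 0.73 with a median of 0.01, against -0.01 over all genes tested. Of the 32, 18 were above 0 and 7 had an unadjusted edgeR p under 0.05. Of all 17531 genes tested, 8299 were above 0 and 2382 were under that limit. The neuronal regulators Rbfox1, Celf2 and Celf4 had log2 changes of 0.02, 0.03 and 0.00, and Ptbp1 and Ptbp2 of 0.01 and -0.05.

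**Figure D4:**
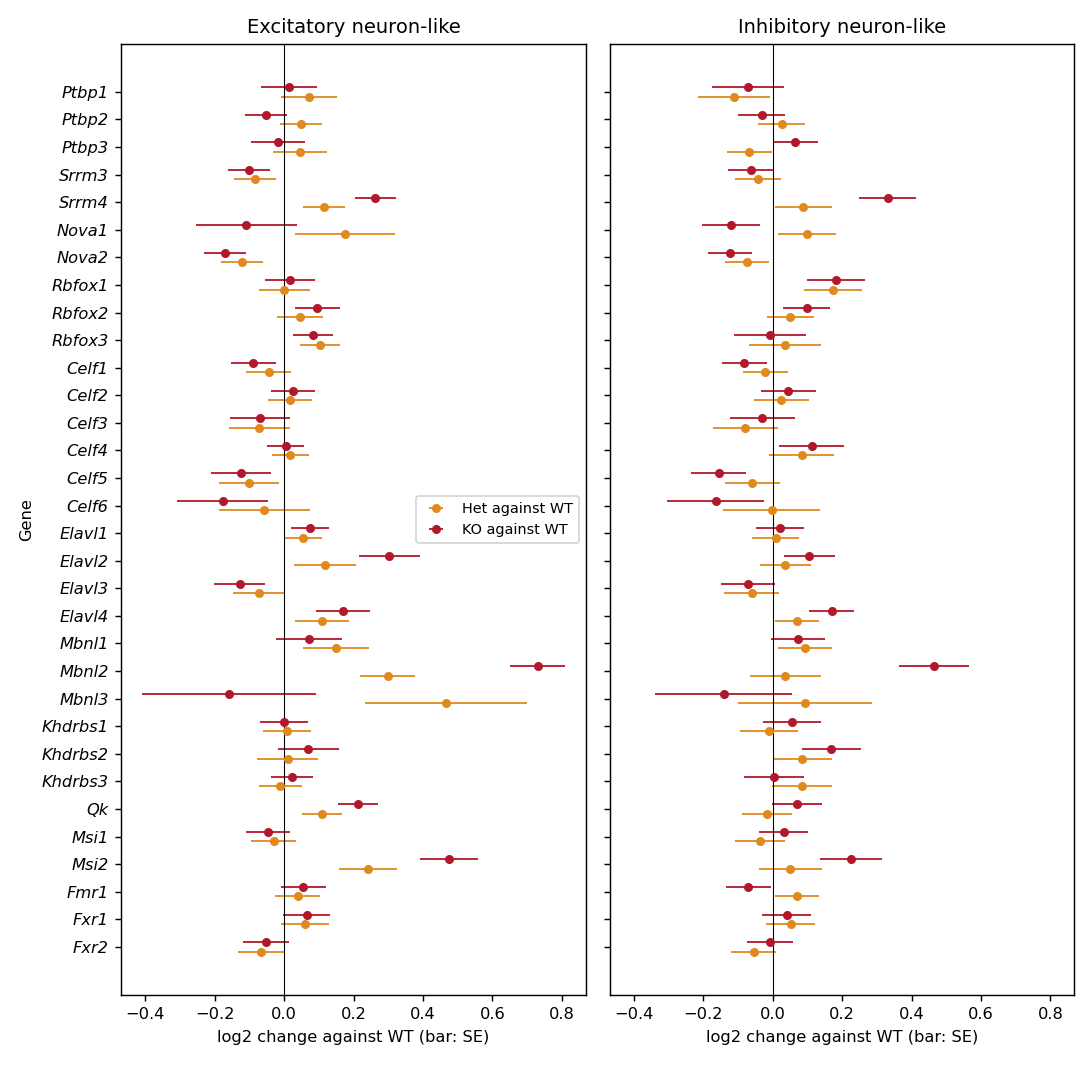
Log2 change of each of the 32 genes in Het and KO against WT (points, with the standard error from edgeR, 3 animals per genotype) in excitatory neuron-like (left) and inhibitory neuron-like nuclei (right). Mbnl2 (0.73), Msi2 (0.47) and Srrm4 (0.26) are the KO changes called on the left, most other genes lie within 0.2 of 0, and none is called on the right.

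Within the 4 ExN-like clusters the KO mean of Mbnl2 exceeded the WT mean by a log2 ratio of 0.88, 0.49 and 0.83 without overlap of the animals, and by 0.26 with overlap. Msi2 had ratios of 0.46, 0.27, 0.57 and 1.10 in the same clusters, and Srrm4 of 0.28, 0.19, 0.21 and 0.23, the last with overlap. Among the unnamed clusters only 2 are given here, 1 with excitatory neuron markers and 1 of 6870 nuclei. The latter scored as Cajal-Retzius but stayed under the 10% limit on summed markers. Mbnl2 had means of 57.3 (WT), 67.2 (Het) and 92.3 CPM (KO) in the one and 57.8, 68.0 and 99.7 CPM in the other. The remaining unnamed clusters, among them another with excitatory neuron markers, are not given, nor are Msi2 and Srrm4 in any unnamed cluster. No rule for the choice of these 2 clusters is given, and their nuclei come from the same animals as the ExN-like nuclei. The Mbnl2 means in them are thus no independent repeat of the KO rise. They do not show how Mbnl2 behaved in the other unnamed clusters.

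Markers of other cell types in ExN-like nuclei were set beside these changes. The radial glia list summed to 1187 to 1279 CPM in WT and 1199 to 1238 in KO, with 0 of the 13 markers tested called with or without the block. The Cajal-Retzius list, the class with the highest Mbnl2 and Msi2, summed to 149 to 213 CPM in WT and 130 to 197 in KO. The intermediate progenitor list was 213 to 226 CPM in WT and 221 to 242 in KO, and the inhibitory neuron list 1394 to 1570 and 1444 to 1819 CPM. Both lists were higher in KO in 3 of 3 same-numbered pairs. With the block, edgeR called 1 intermediate progenitor and 1 excitatory neuron marker higher, and 1 inhibitory neuron and 1 Cajal-Retzius marker lower. The diencephalic list stood apart, with WT animals at 64.2 to 72.2 CPM, Het at 74.0 to 96.4 and KO at 81.6 to 116, with all 10 markers counted, 3 tested and 1 called higher by edgeR, or 2 with the block. The part of these lists in the changes was not tested.

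In InhN-like nuclei 0 of the 32 genes were called in KO by edgeR, against 0.0612% of 17968 genes. DESeq2 called 1 (Mbnl2), and its share over all genes is not given here. At an unadjusted edgeR p under 0.05 there were 5 of the 32, against 1219 of the 17968. With the replicate block, where animals of the same number deviated together (r from 0.226 to 0.579), 3 genes rose, Mbnl2, Srrm4 and Msi2, against 0.673% of all genes called higher. Mbnl2 was 82.1, 81.2 and 79.1 CPM in WT, 82.2, 90.6 and 71.2 in Het, and 110, 119 and 97.5 in KO (log2 change 0.46, SE 0.101, edgeR adjusted p = 0.179, and 0.00175 with the block). Every KO animal lay above every WT animal, while Het overlapped WT. Srrm4 was 349, 372 and 361 CPM in WT, 385, 381 and 364 in Het, and 496, 416 and 417 in KO (0.33, SE 0.082, edgeR adjusted p = 0.292, and 0.0280 with the block). Msi2 was 486, 555 and 482 CPM in WT, 527, 553 and 471 in Het, and 559, 620 and 558 in KO (0.22, SE 0.090, edgeR adjusted p = 0.645, and 0.0406 with the block).

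KO and WT did not overlap for any of these 3 genes. Nova2, not called, did not overlap either, with KO lower (176 to 182 CPM in WT, 151 to 173 in KO). Elavl4 had a log2 change of 0.17 (247 to 260 CPM in WT, 273 to 287 in KO, edgeR adjusted p = 0.602), Rbfox1 of 0.18 (1874 to 1944 CPM in WT, 1965 to 2353 in KO, 0.732) and Khdrbs2 of 0.17 (503 to 546 CPM in WT, 505 to 633 in KO, 0.765). Over the 32 genes the median log2 change was 0.03, against -0.01 over all genes. Radial glia markers summed to 544 to 553 CPM in WT and 529 to 540 in KO InhN-like nuclei, intermediate progenitor markers to 206 to 226 and 241 to 253 CPM, and excitatory neuron markers to 2515 to 2763 and 2745 to 3068 CPM. Of these 3 lists 0 markers were called by edgeR, and 1 excitatory neuron marker was called higher with the block. The block also called 1 inhibitory neuron and 1 choroid plexus marker lower, the choroid plexus list summing to 31.3, 19.9 and 24.1 CPM in WT and 20.3, 15.4 and 16.3 CPM in KO. The part of these lists in the values above was not tested.

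The difference between the KO change in ExN-like and in InhN-like nuclei passed the test for 0 of the 32 genes, with 0.106% of 18828 genes passing. The largest was that of Mbnl2, 0.27 on the log2 scale (SE 0.066, unadjusted p = 0.000893, edgeR adjusted p = 0.237), followed by Msi2 at 0.25 (edgeR adjusted p = 0.352). With the filter on low counts, Rbfox1 had a difference of -0.15 (edgeR adjusted p = 0.897). Without that filter the test passed for 2 genes, Msi2 and Rbfox1, so the count among the 32 genes depends on the filter. The share of all genes that passed without the filter is not given here, so this count has no background.

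**Figure D5:**
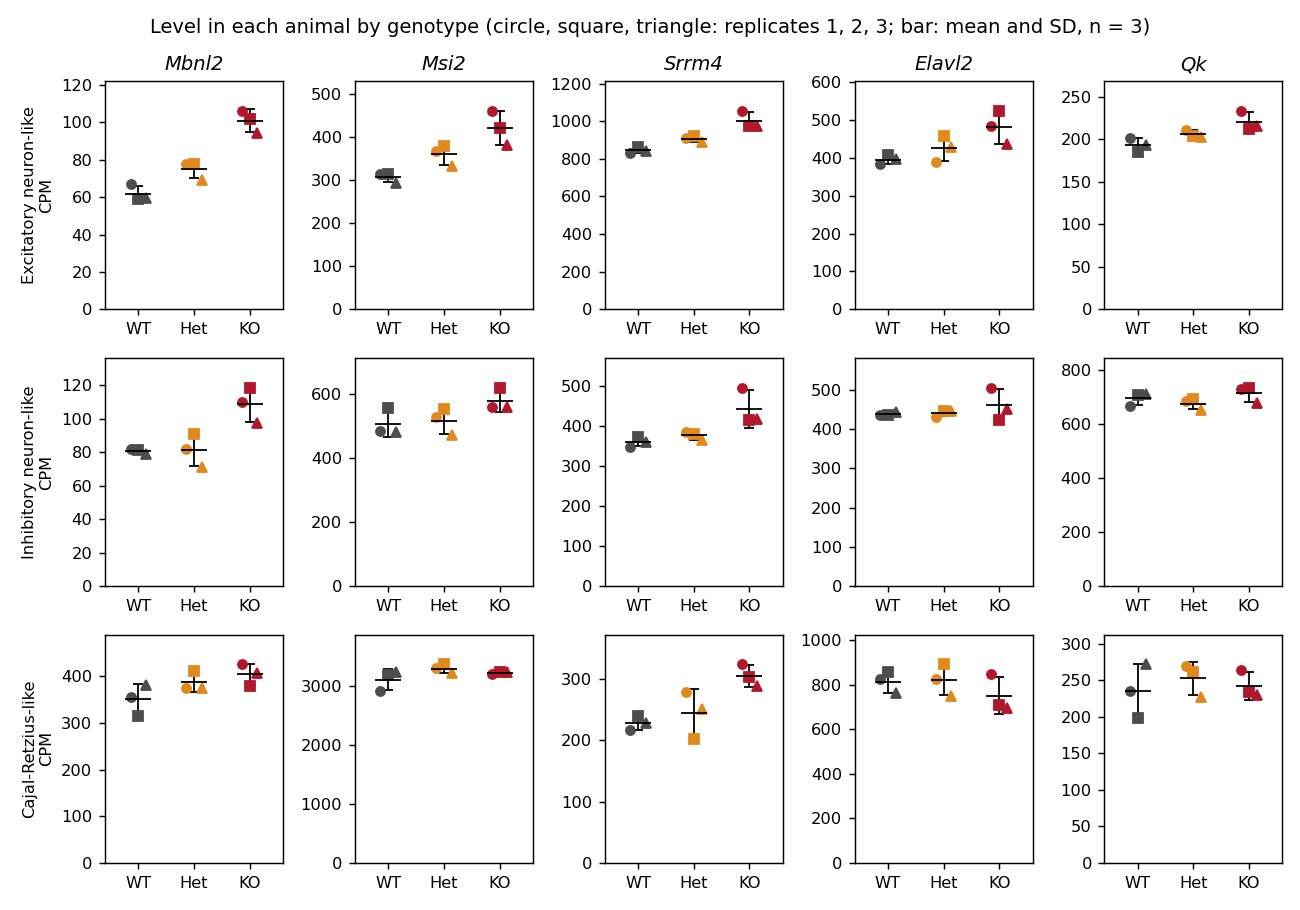
Level in CPM of Mbnl2, Msi2, Srrm4, Elavl2 and Qk in excitatory neuron-like, inhibitory neuron-like and Cajal-Retzius-like nuclei by genotype, 1 point per animal (circle, square and triangle for replicates 1, 2 and 3), bars at the mean ± SD (n = 3). In excitatory neuron-like nuclei the KO points lie above the WT points for all 5 genes, with Mbnl2 at 94.1 to 106 against 58.8 to 66.8 CPM.

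In CR-like nuclei 31 genes were tested (Mbnl3, with 27 UMIs in all, was not). Of these, 0 were called by edgeR with or without the block, and 0 by DESeq2, which was run without the block. By edgeR without the block 0.183% of 8752 genes were called. At an unadjusted edgeR p under 0.05 there were 3 of the 31, against 815 of the 8752. Srrm4 was 217, 240 and 228 CPM in WT, 279, 201 and 251 in Het, and 324, 303 and 289 in KO, without overlap of KO and WT (log2 change 0.42, SE 0.121, edgeR adjusted p = 0.176). Celf6 was 25.4, 26.2 and 28.3 CPM in WT and 22.9, 13.3 and 14.9 in KO, also without overlap (log2 change -0.61, SE 0.292, edgeR adjusted p = 0.535). Rbfox1 was 352, 265 and 303 CPM in WT and 588, 327 and 375 in KO, with overlap (0.50, SE 0.194, edgeR adjusted p = 0.389), and was called without the filter on low counts. Mbnl2 (0.22, edgeR adjusted p = 0.550) and Msi2 (0.06), both at their highest level in this class, had smaller values. Mural cell markers summed to 14.7 to 26.6 CPM in WT and 32.6 to 43.3 in KO with Acta2 at 0, and intermediate progenitor markers to 833 to 962 and 986 to 1065 CPM, and their part was not tested.

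In the progenitor classes 0 genes were called in KO by edgeR or DESeq2, and 0% of all genes tested passed by edgeR. At an unadjusted p under 0.05 there were 0 in RG-like, 0 in IP-like and 2 in InhP-like nuclei (Srrm3, -0.31, and Elavl4, 0.17). Of all genes tested, 357 of 16003, 564 of 14216 and 347 of 12422 were under that limit. Mbnl2 had log2 changes of 0.10, 0.18 and 0.10 in these classes, and Msi2 of 0.03, 0.10 and 0.01.

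Het against WT gave 0 calls in all 6 classes by edgeR and by DESeq2, and 0% of all genes passed by edgeR. The Het and KO comparisons share the WT animals. At an unadjusted p under 0.05 there were Mbnl2 and Msi2 in ExN-like, Khdrbs2 in IP-like and Nova1, Mbnl3 and Fmr1 in InhP-like nuclei. Of all genes tested, 623 of 17531, 380 of 14216 and 329 of 12422 were under that limit in these classes. The Het change of Mbnl2 in ExN-like nuclei was 0.30 (SE 0.079, edgeR adjusted p = 1.00, and 0.0750 with the block), with all 3 Het animals above all 3 WT animals, and that of Msi2 was 0.24 (edgeR adjusted p = 1.00, and 0.127 with the block).

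The other RNA-binding lists were read from the same fits. In ExN-like nuclei 0 of 22 SR proteins and kinases, 0 of 27 hnRNP proteins and 0 of 25 spliceosome genes were called by edgeR. Of 48 other regulators tested, 2 rose and 1 fell, against 1.63% of all genes called in either direction. Rbms2 rose by 0.70 (14.8 to 24.0 CPM in the means, edgeR adjusted p = 0.00259), and Igf2bp1, an mRNA-binding protein of progenitors, by 0.40 (89.6 to 116 CPM, edgeR adjusted p = 0.0311). Adarb1, an adenosine deaminase that edits RNA, fell by 0.34 (52.6 to 40.8 CPM, edgeR adjusted p = 0.0179). The block called 660 of all 17531 genes higher and 537 lower. With the block, 2 hnRNP proteins were called lower, Pcbp1 (-0.29, edgeR adjusted p = 0.358, and 0.0385 with the block) and Hnrnpa0 (-0.24, 0.596 and 0.0337). Among the other regulators the block gave 3 higher and 2 lower, adding Adarb2 (0.25, edgeR adjusted p = 0.406, and 0.0272 with the block) and Lin28b (-0.33, 0.286 and 0.0226). In InhN-like nuclei the 4 lists had 0 calls. In CR-like nuclei Adarb2, a catalytically inactive relative of Adarb1, rose by 1.42 (SE 0.277, 29.9 to 79.3 CPM, edgeR adjusted p = 0.0357). The Het animals were at 59.0, 20.7 and 69.2 CPM there. Adarb2 had a mean of 3568 CPM in InhN-like nuclei, and the part of such counts in the CR-like sums was not tested.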

How the data were processed

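Nuclei of flash-frozen forebrains were freed by douncing, fixed and barcoded combinatorially with the ScaleBio kit, and polyadenylated RNA was sequenced. The authors deposited estimated counts of UMIs per gene and barcode, mapped to mm10 with ScaleRna (6.70% to 8.71% of the entries of a library are not whole), with no normalization. The submitters' processing notes name Seurat 4.3.0, DESeq2 1.38.3 and Scanpy 1.12.0. The 32 genes and all lists were chosen with earlier results of these data known, and the rule for naming clusters was set after seeing the data.

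Kept nuclei had 800 to 6000 UMIs, 300 to 3000 genes and no more than 1% of UMIs from mitochondrial genes, and log(genes) divided by log(UMIs) was 0.9 or higher, and they were not among the 5% of all barcodes of their library with the highest doublet score (the share of simulated doublets among nearest neighbours). Of the barcodes, 18105 failed the upper limits alone, and of the 200916 within the limits the score removed 4787. Clustering (Leiden, igraph 0.11.9) used 3000 variable genes without the 32 genes, Myt1l and sex-linked genes, 50 components and 20 neighbours. Of the 28 clusters, a cluster took a class name with at least 3 markers detected, if share and fold of markers named the same class, its 10 leading genes held no larger number of another class's markers, and its own markers summed to at least 10% of the highest cluster of that class.

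Counts were summed per animal and class over both runs and rounded. They were tested with edgeR 4.0.16 (quasi-likelihood F-test, two-sided, filterByExpr, TMM, genotype only, all 9 animals) in R 4.3.3, adjusted by Benjamini-Hochberg over all genes of the class. DESeq2 1.42.0, other scalings, filters, runs, cell limits, leaving out each animal and the replicate number as a block were alternatives. Each of the 32 genes called in a class is given with each animal's value, with the 3 others of lowest p in ExN-like and in InhN-like nuclei. The tests were tried on simulated counts first.

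The embryos are separate animals, but the labels do not tie replicate numbers to litters. Deviations from the genotype means of same-numbered animals correlated at 0.285 to 0.709 in RG-like, 0.195 to 0.518 in IP-like, 0.238 to 0.691 in ExN-like, 0.157 to 0.388 in InhP-like and 0.226 to 0.579 in InhN-like sums, and at 0.0626 to 0.236 in CR-like sums, against -0.533 to 0.258 for other pairs. The numbers were therefore read as pairing animals in the first 5 classes, on the evidence of the data and not of the labels. Gene positions came from GENCODE vM21 (GRCm38), which holds 54587 of the identifiers with their version, and promoters from RefSeq (GRCm38.p6).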

Additional observations from a re-analysis of the deposited data

Results flagged for a closer look

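Mbnl3, an X-linked gene, stood out because the KO animals lay apart from the WT animals in opposite directions in both inhibitory classes. In InhP-like nuclei it was 15.8, 15.8 and 11.3 CPM in WT and 22.7, 17.2 and 17.1 CPM in KO, a log2 change of 0.34. In InhN-like nuclei it was 3.97, 3.96 and 4.25 CPM in WT and 2.74, 3.96 and 3.78 CPM in KO, a log2 change of -0.14, where the nearest WT and KO animals were almost equal. Neither change was called by edgeR (unadjusted p = 0.103 and 0.487), and the difference was not tested. WT replicate 3 was the only female animal.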

How the results depend on the processing

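The count of genes called between KO and WT in ExN-like nuclei was 3. It was 5 with the replicate block and 0 in run 1 alone, and it ran from 1 to 4 when an animal was left out, with 1 without WT replicate 3 or KO replicate 2 and 4 without KO replicate 3, where Elavl2 was added. In InhN-like nuclei the count of 0 became 1 with DESeq2, 2 without the filter on low counts (Mbnl2 and Srrm4) and 3 with the replicate block. In CR-like nuclei it became 1 (Rbfox1) without that filter, and the difference between neuron classes then passed for 2 genes (Msi2 and Rbfox1). For the genotype comparisons, shares over all genes are given only for the main fit and the replicate block. The other counts of calls have no background here. Among the 32 genes the block changed no other call. Between progenitors and neurons, a 1.5-fold limit gave 10 lower genes in the excitatory lineage (29.2% of all genes), and 8 higher (12.5%) and 5 lower (18.4%) in the inhibitory lineage. There TMM scaling gave 7 higher and 1 lower, and 1 was also lower with 5 CPM added, in run 2 alone and when the 32 genes took part in the clustering. Leaving out an animal gave 2 to 3 lower genes there. In ExN-like nuclei the KO change of Mbnl2 stayed between 0.69 and 0.80 over all alternatives, that of Msi2 between 0.40 and 0.56 and that of Srrm4 between 0.22 and 0.30, and none of the 3 was called in run 1 alone. Msi2 and Srrm4 were not called in some of the others either. No change of direction was seen among the results listed here. Depth was lowest in CR-like sums and run 1 held fewer nuclei than run 2, and the part of depth in the few calls there was not tested.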
